A study of Mus musculus with 16 samples.

Results

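The comparison described here is that of 4 MCAO control libraries with 5 sham control libraries of microglia/macrophages, taken 3 days after surgery, across all genes counted. These are 9 of the 16 libraries of the series, chosen by their labels alone. All 9 came from C57BL/6 mice of 10 to 12 weeks that carried floxed Vdr alleles and no Cre transgene (Vdrf/f), so Vdr is intact in both groups and the mice served as controls of the Vdr-cKO animals (Cx3cr1CreER/+; Vdrf/f). According to the study's methods the animals were male, tamoxifen was given to the mice before surgery, MCAO was a transient occlusion of the middle cerebral artery by a monofilament with reperfusion, and cells were taken from a suspension of the brain with CD11b microbeads. The sample notes speak of microglia and of depletion of ribosomal RNA, and the methods of microglia/macrophages and of poly-A mRNA. Whether 1 library held 1 mouse or a pool is not given in the sources used here, so the p-values below measure the spread between these libraries.

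Microglia are the resident macrophages of the brain. In the healthy tissue they are held in a surveying state by signals such as TGF-beta and CSF1, and they express a set of genes, P2ry12 and Tmem119 among them, that other macrophages largely lack. After an ischemic stroke they meet dying neurons, myelin debris, hypoxia and blood-borne signals, and monocytes from the blood enter the lesion, become macrophages and carry CD11b like microglia do. A library of CD11b+ cells from the brain after MCAO therefore reads the RNA of both, and a lower or higher level of a gene in it cannot be assigned to fewer cells of a type or to less RNA per cell, which cannot be told apart in bulk samples.

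Each library gave 13795946 to 16607574 counts, and the 2 groups did not overlap on the first principal component, which held 74.5% of the variance (73.3 to 97.7 for MCAO and -74.4 to -59.2 for sham). Correlations of log levels across genes ran from 0.979 to 0.985 between MCAO libraries, from 0.965 to 0.987 between sham libraries and from 0.864 to 0.912 between groups. Sham control replicates 1 and 3 lay at -42.7 and -20.5 on the second component and replicates 2, 4 and 5 at 10.5 to 43.5, and some results below are also given without 1 of these sets. The column names of the 5 sham control libraries carry an ending of read files that the other columns lack, so any handling that goes with it cannot be told apart from the surgery. Levels are given as CPM, counts relative to the library total after TMM scaling of all 16 libraries, and overlap of groups was judged on them. Log2 fold changes in control mice come from a separate TMM scaling of the 9 control libraries, so a ratio of levels can differ from them. A gene rose or fell where the Benjamini-Hochberg adjusted p of edgeR's quasi-likelihood test was under 0.05 over all genes tested. A DEG had in addition a log2 fold change above 1 or below -1. Means are given ± SD over the 4 MCAO and the 5 sham libraries, and a change from 1 mean to another runs from sham to MCAO.

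Of 16089 genes tested, 5024 rose (31.2%) and 5191 fell (32.3%) 3 days after MCAO, 63.5% of all together. Counts of list members given below are to be read beside these shares. The DEGs numbered 2054 higher (12.8%) and 2383 lower (14.8%). When the fold change itself was tested against the DEG threshold, 1371 genes passed with a higher and 1198 with a lower level. Without sham control replicates 2, 4 and 5 the DEGs numbered 2069 higher and 2396 lower, and without replicates 1 and 3 they numbered 2230 and 2205. The groups did not overlap for 4557 genes that were higher in MCAO libraries (28.3%) and 3879 that were lower (24.1%). Large changes were mostly rises, since 372 genes rose and 153 fell by more than 3 on the log2 scale. The median log2 fold change of all genes tested was -0.05. Scaling by library size alone moved it by -0.24 and upper-quartile scaling by -0.18, and the share of rises among the called genes was then 32.8% and 36.3% in place of 49.2%, so small changes below are relative to TMM scaling.

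**Figure D1:**
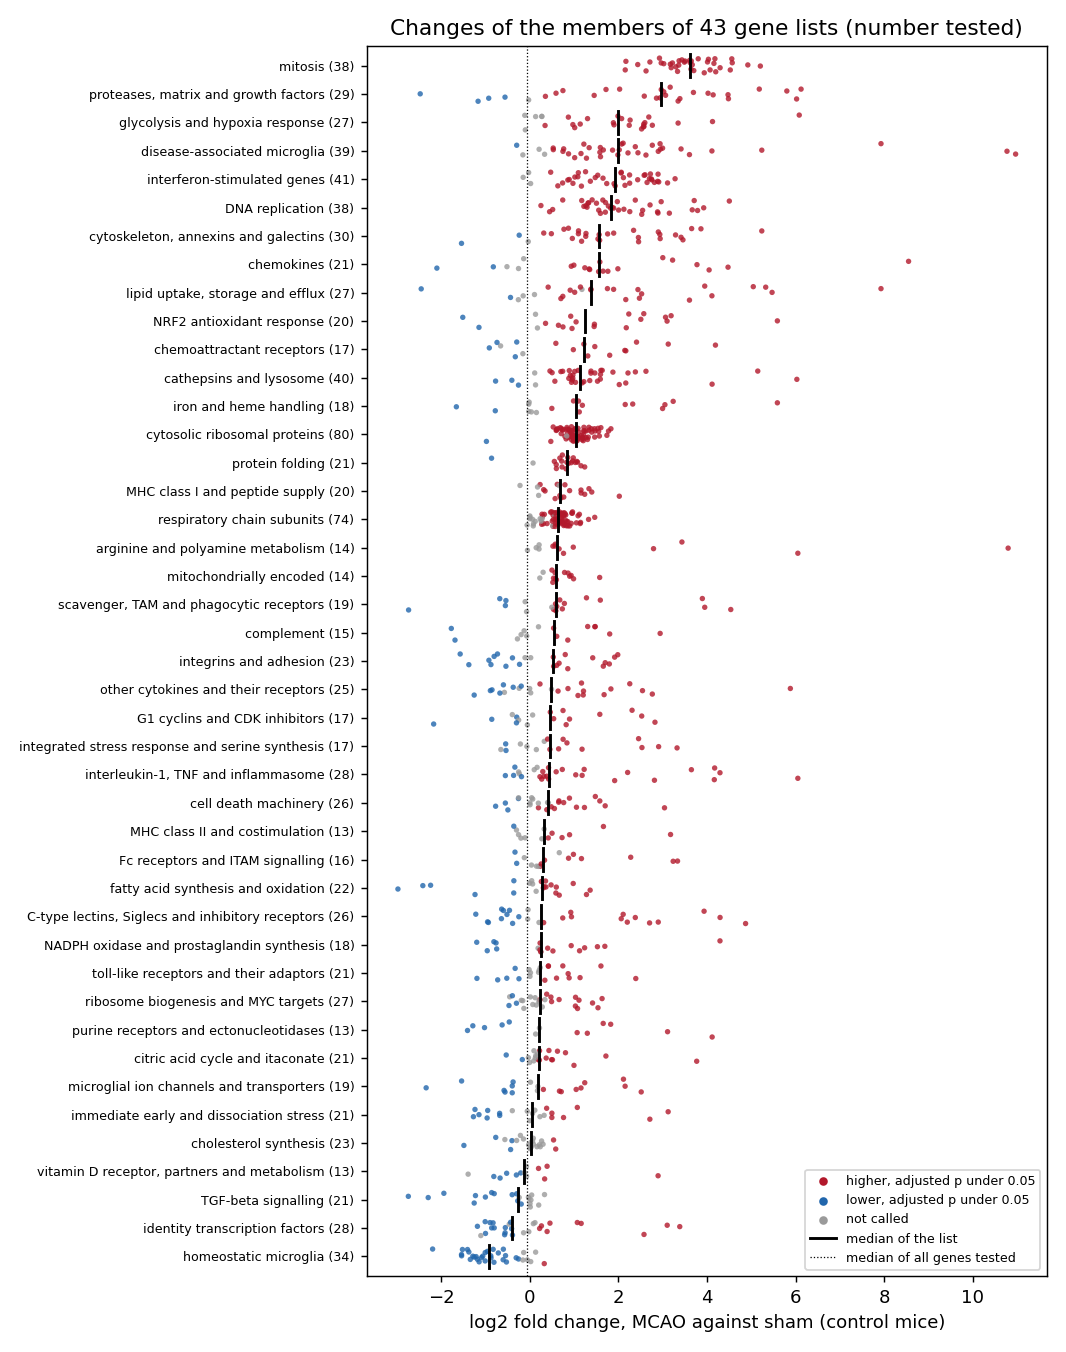
Changes after MCAO in the members of 43 gene lists. Each point is a gene at its log2 fold change (MCAO against sham, control mice), red where it rose, blue where it fell and grey where it did not pass the adjusted p. Black bars are list medians, and the dotted line is the median of all genes tested at -0.05. Mitosis genes have the highest median at 3.61 and homeostatic microglial genes the lowest at -0.92.

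Vdr, the gene of the vitamin D receptor (ENSMUSG00000022479, chromosome 15 of GRCm38 from 97854425 to 97910630), stood at 3.40, 1.72, 1.48 and 2.91 CPM in the 4 MCAO libraries and at 0.823, 0.0596, 0.389, 0.183 and 0.0630 CPM in the 5 sham libraries. The groups did not overlap, although sham levels lie near the lower end of what can be counted. The means were 2.38 ± 0.925 CPM (SD, n = 4) after MCAO and 0.303 ± 0.320 CPM (SD, n = 5) after sham surgery (2-sided exact permutation test, p = 0.0159, the smallest p that 4 against 5 libraries allow), and the log2 fold change was 2.90 ± 0.57 (SE, edgeR adjusted p = 0.000778). It was 3.71 without sham control replicate 1, 4.42 without sham control replicates 1 and 3 and 1.90 without replicates 2, 4 and 5. Vdr acts as a dimer with a retinoid X receptor. Rxra, 1 of these receptors, rose by 0.39 (SE 0.10, edgeR adjusted p = 0.00556), with 0.188 as its adjusted p under scaling by library size alone. Cyp27a1, a mitochondrial hydroxylase of sterols and vitamin D, fell by 0.81 on the log2 scale. Of 13 genes tested among the receptor, its partners, coregulators and metabolic enzymes, 4 rose and 5 fell, with a median change of -0.12. These counts lie near the shares of all genes tested, of which 31.2% rose and 32.3% fell. Under scaling by library size alone 1 rose and 7 fell, and without sham control replicates 2, 4 and 5 it was 3 and 2. Cyp27b1, which makes the active hormone, had too few counts to be tested.

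The genes that mark microglia in the healthy brain were lower after MCAO. Of 34 homeostatic genes tested, 28 fell, 1 rose and 5 did not pass the test, and 27 were lower and 1 higher with groups that did not overlap. Their median log2 fold change was -0.92. The decrease was moderate, for the largest was a log2 fold change of -2.19 and 16 were DEGs.

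Tmem119, a membrane protein used to tell microglia from other macrophages (ENSMUSG00000054675, chromosome 5 of GRCm38 from 113793729 to 113800516), stood at 761, 685, 806 and 677 CPM after MCAO and at 2036, 2269.7, 1614, 2390.2 and 2013 CPM after sham surgery. P2ry12, the ADP receptor that steers microglial processes (ENSMUSG00000036353, chromosome 3 of GRCm38 from 59216272 to 59262871), stood at 1295, 1471, 1389 and 1358 CPM after MCAO and at 2756, 2957, 4169, 3675 and 2937 CPM after sham surgery. Cx3cr1, the fractalkine receptor, stood at 2223, 2309.7, 2275 and 2211 CPM and 4508, 4807, 4848, 5469.8 and 4836 CPM. In all 3 genes every MCAO library lay below every sham library, and the MCAO libraries lay close together. The log2 fold changes were -1.52 ± 0.11 (SE, edgeR adjusted p = 1.88e-07) for Tmem119, -1.29 ± 0.12 (SE, edgeR adjusted p = 1.8e-06) for P2ry12 and -1.14 ± 0.07 (SE, edgeR adjusted p = 6.7e-08) for Cx3cr1. Sall1, a transcription factor of microglial identity, fell by 1.18 on the log2 scale from 1295 ± 128 CPM to 581 ± 35.8 CPM. Slc2a5, a fructose transporter, fell by 1.54, and P2ry13, another ADP receptor, by 1.41.

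Csf1r, the receptor on which microglial survival depends, had a smaller fold change. It stood at 6321, 6330.2, 7338 and 6635 CPM after MCAO and at 8814, 9771, 9208, 10838 and 9171 CPM after sham surgery, groups that did not overlap, with a log2 fold change of -0.55 ± 0.09 (SE, edgeR adjusted p = 0.000148). Cst3, the protease inhibitor cystatin C, fell from 8459 ± 1107 CPM to 3393 ± 211 CPM.

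**Figure D2:**
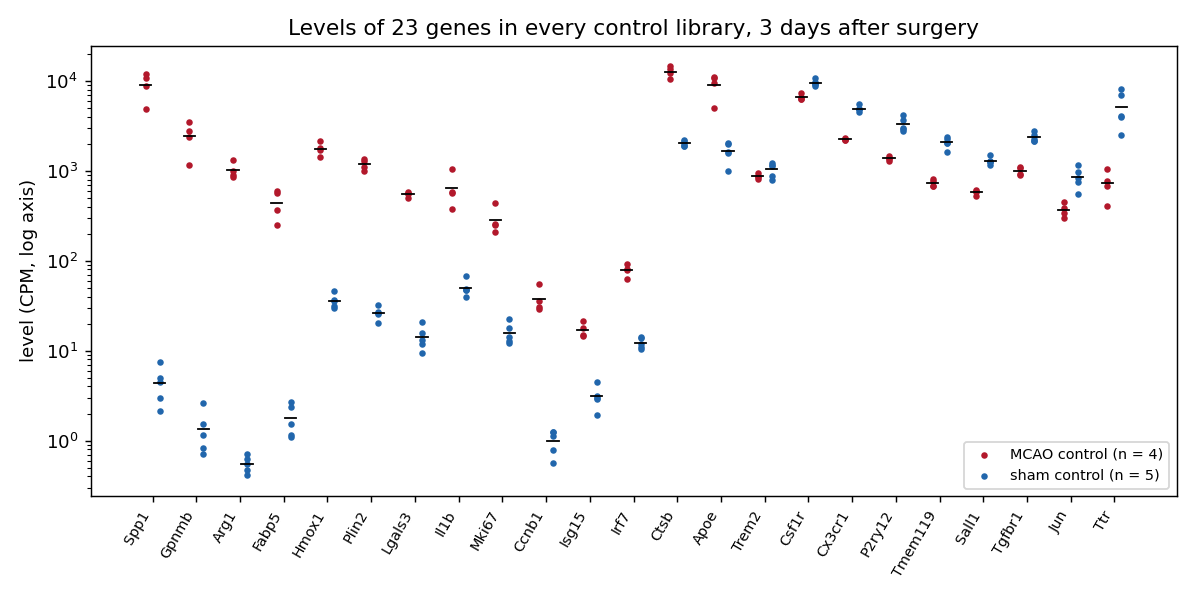
Levels of 23 genes in every control library. Each point is 1 library in CPM on a log axis, red for MCAO (n = 4) and blue for sham (n = 5), and black bars are group means. Spp1, Gpnmb, Arg1 and Fabp5 lie in ranges that are far apart, while the homeostatic genes P2ry12, Tmem119 and Cx3cr1 differ by less than 4-fold in the means.

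The markers chosen for microglia as a cell type stood at a summed level of 14235 to 15167 CPM after MCAO and 21303 to 27499 CPM after sham surgery. Markers of monocytes and of macrophages derived from them were higher. Of 12 monocyte markers, 11 rose, and their summed level was 6661 to 9384 CPM in MCAO and 333 to 530.1 CPM in sham libraries. Fn1, the gene of fibronectin, and Thbs1, that of thrombospondin, make up most of that sum after MCAO and are also made by other activated cells. Among genes closer to the blood monocyte, and named after its values were seen, Ccr2, the receptor for CCL2, rose by 2.17 on the log2 scale and stood at 159.8 ± 37.7 CPM after MCAO and 34.95 ± 7.55 CPM after sham surgery. Ly6c2, the surface antigen of inflammatory monocytes, stood at 35.4, 18.4, 22.2 and 19.5 CPM and 7.40, 17.2, 5.19, 11.1 and 10.2 CPM, with a log2 fold change of 1.20 ± 0.29 (SE, edgeR adjusted p = 0.00321). Its groups did not overlap but lay close, with the lowest MCAO library at 18.4 CPM and the highest sham library at 17.2 CPM. The log2 fold change was 1.88 without sham control replicates 2, 4 and 5. It was 0.88 without sham control replicates 1 and 3 and 0.96 without MCAO control replicate 1.

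Of 10 markers of monocyte-derived macrophages, 9 rose and 1 fell, with summed levels of 6032 to 7655 CPM after MCAO and 564 to 821 CPM after sham surgery. Emilin2, a matrix glycoprotein, rose from 13.2 ± 3.66 CPM to 302 ± 75.6 CPM, and F13a1, coagulation factor XIII A of monocytes and macrophages, from 140.0 ± 25.3 CPM to 639 ± 72.2 CPM. Border macrophages, which line the meninges and vessels, have markers that divided, since 6 of 11 rose and 4 fell, and 5 rose and 5 fell under scaling by library size alone. Pf4, a chemokine of platelets and border macrophages, rose from 30.7 ± 3.99 CPM to 292 ± 48.6 CPM, while Cd209f, a lectin, fell by 2.09 on the log2 scale. How much of any rise below came with infiltrating cells was not tested.

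Neutrophil markers did not move as 1 group. Cxcr2, the chemokine receptor of mature neutrophils, rose from 9.18 ± 3.92 CPM to 81.2 ± 41.8 CPM, with MCAO libraries at 144, 55.6, 65.1 and 60.5 CPM, and Mmp9, a gelatinase they store, rose from 58.4 ± 27.4 CPM to 355 ± 183 CPM, with MCAO libraries at 626, 228, 275 and 292 CPM. In both genes MCAO control replicate 1 was well above the rest. Without it the log2 fold changes were 2.71 and 2.18 in place of 3.12 and 2.58. Camp, an antimicrobial peptide of neutrophil granules, stood at 2.26, 3.31, 9.63 and 4.12 CPM after MCAO and 28.7, 95.5, 16.4, 47.5 and 49.3 CPM after sham surgery, and Ly6g, the surface antigen of neutrophils, fell from 4.49 ± 2.22 CPM to 0.762 ± 0.162 CPM. Without sham control replicates 2, 4 and 5 the log2 fold changes were -2.27 for Camp, -1.64 for Ly6g and 3.35 for Mmp9, against -3.32, -2.57 and 2.58 with all libraries. In all, 3 of 13 tested markers rose and 7 fell, and their summed levels overlapped (1771 to 2798 CPM after MCAO and 1504 to 3224 CPM after sham surgery). The median of -1.16 moved with the sham libraries used. Without sham control replicates 2, 4 and 5 it was -0.16, with 3 higher and 4 lower of 12, and without replicates 1 and 3 it was -1.53, with 3 and 10 of 14.

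Markers of tissue that is not myeloid were in part higher in the sham libraries. Ttr, the thyroxine carrier made by the choroid plexus, stood at 404, 1042, 767 and 680.0 CPM after MCAO and at 8088, 4098, 6903, 2484 and 3989.7 CPM after sham surgery, a log2 fold change of -2.86 ± 0.36 (SE, edgeR adjusted p = 2.28e-05). All 5 choroid plexus and ependyma markers tested fell, and their sum ran from 440.1 to 1139 CPM in MCAO to 2709 to 8874 CPM in sham libraries, where replicates 1 and 3 were the highest. Endothelial and pericyte markers fell for 9 of 11, with sums of 83.4 to 113 and 125.8 to 293 CPM, and for 6 of 11 without sham control replicates 1 and 3. Neuronal markers fell for 3 of 5 and summed to 4.80 to 5.56 and 8.22 to 22.5 CPM (1 of 4 fell without those 2 libraries, and the median went from -1.80 to -0.28). Astrocyte markers divided (4 higher and 5 lower of 9, or 2 and 5 under scaling by library size alone), as did those of oligodendrocytes and their precursors (3 and 3 of 8, or 1 and 3 under that scaling), dendritic cells (3 and 3 of 7) and platelets (1 and 1 of 3). Erythroid markers summed to 2.93 to 40.4 CPM after MCAO and 5.45 to 21.5 CPM after sham surgery. Lymphocyte markers summed to 15.8 to 19.3 CPM and 14.7 to 20.01 CPM, and 1 of the 16, Cd79b, had counts enough to be tested, with a log2 fold change of -0.02 (edgeR adjusted p = 0.878). No marker of any of these lists was at 0 in all 9 libraries.

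**Figure D3:**
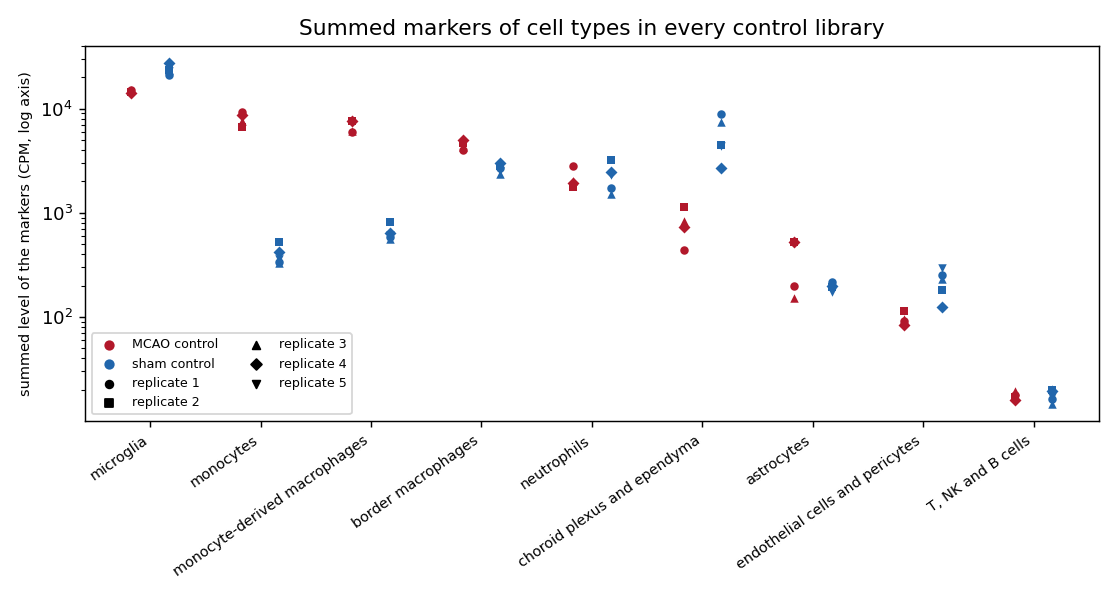
Summed levels of cell type markers in every control library, in CPM on a log axis, with the replicate number as the marker's shape. Monocyte and macrophage markers lie higher in the 4 MCAO libraries (red) and choroid plexus markers higher in the 5 sham libraries (blue), with no overlap, while neutrophil and lymphocyte markers overlap.

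The genes of the disease-associated state of microglia, first described around amyloid plaques and shared by foamy macrophages, held the largest single change of the gene lists. Of 39 tested, 35 rose, 1 fell and 3 did not pass, with a median change of 1.99, and 30 were DEGs. Spp1, the secreted phosphoprotein osteopontin (ENSMUSG00000029304, chromosome 5 of GRCm38 from 104435118 to 104441050), stood at 4869.6, 10675, 8761 and 11861 CPM after MCAO and at 7.52, 2.14, 4.47, 2.98 and 4.91 CPM after sham surgery. Gpnmb, a transmembrane glycoprotein of lysosome-rich macrophages (ENSMUSG00000029816, chromosome 6 of GRCm38 from 49036546 to 49070929), stood at 1152, 2751, 2360.5 and 3447 CPM and 1.53, 0.715, 2.59, 1.16 and 0.819 CPM. Both went from a level near the floor of counting in every sham library to a high one in every MCAO library, and MCAO control replicate 1 was the lowest MCAO library in both. The log2 fold changes were 10.97 ± 0.40 (SE, edgeR adjusted p = 6.75e-10) for Spp1 and 10.77 ± 0.40 (SE, edgeR adjusted p = 8.24e-10) for Gpnmb, the largest and the third largest among the genes named here.

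Fabp5, a fatty acid binding protein, rose from 2.35, 1.55, 1.10, 1.16 and 2.71 CPM in the sham libraries to 248, 597, 366 and 565 CPM in the MCAO libraries. Lgals3, the gene of galectin-3, which binds damaged lysosomes and glycoproteins, rose from 14.2 ± 4.45 CPM to 546 ± 37.7 CPM, a log2 fold change of 5.24 ± 0.19 (SE, edgeR adjusted p = 6.75e-10). Growth factors of the list rose too, among them Csf1 by 2.77 and Igf1 by 2.94 on the log2 scale. Apoe, the lipid carrier, stood at 4987, 11113, 9406 and 10836 CPM after MCAO and 1989, 2012, 996, 1609 and 1596 CPM after sham surgery. It was abundant in both groups, which did not overlap, and its log2 fold change was 2.44 ± 0.24 (SE, edgeR adjusted p = 2.57e-06).

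Itgax, the integrin CD11c, rose by 1.66, Clec7a, the receptor dectin-1, by 2.38, and Cst7, cystatin F, by 2.95. Trem2, the lipid-sensing receptor through which the state is reached in models of amyloid disease, had a small fold change of the opposite sign. It stood at 803, 944, 857 and 865 CPM after MCAO and 885, 1173, 798, 1235 and 1142 CPM after sham surgery, groups that overlapped, with a log2 fold change of -0.30 ± 0.12 (SE, edgeR adjusted p = 0.0436). Without sham control replicates 2, 4 and 5 it was 0.00, and its adjusted p was above 0.05 when any 1 of the MCAO libraries or of sham control replicates 2, 4 and 5 was left out (0.0523 to 0.133 from edgeR). Tyrobp, the signalling adaptor of TREM2, rose by 0.87 on the log2 scale.

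Genes of cell division rose together. All 38 DNA replication genes and all 38 mitosis genes on the lists rose under TMM scaling (35 and 38 under scaling by library size alone), with median log2 fold changes of 1.84 and 3.61. Mki67, a protein of the surface of mitotic chromosomes that marks cycling cells (ENSMUSG00000031004, chromosome 7 of GRCm38 from 135689784 to 135716361), stood at 434, 247, 257 and 211 CPM after MCAO and at 14.2, 22.3, 17.8, 12.8 and 12.03 CPM after sham surgery. Top2a, the topoisomerase that untangles replicated DNA, stood at 243, 125.6, 145 and 141 CPM and 10.5, 12.03, 11.3, 7.55 and 11.1 CPM. Ccnb1, the B-type cyclin that drives entry into mitosis, stood at 54.8, 30.4, 35.7 and 29.3 CPM and 1.12, 1.25, 1.23, 0.791 and 0.567 CPM. The groups were far apart in all 3, and MCAO control replicate 1 was the highest library in each. Log2 fold changes were 4.16 ± 0.24 (SE, edgeR adjusted p = 2.21e-08) for Mki67, 3.94 ± 0.20 (SE, edgeR adjusted p = 1.04e-08) for Top2a and 5.20 ± 0.25 (SE, edgeR adjusted p = 6.69e-09) for Ccnb1, and without that library they were 3.90, 3.70 and 4.98.

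Of the replication genes, Mcm5 and Mcm6, subunits of the replicative helicase, rose by 2.55 and 2.38, Rrm2, the small subunit of ribonucleotide reductase, by 3.93, and Pcna, the sliding clamp, by 1.50 on the log2 scale. The regulators of the G1 phase moved both ways, 9 higher and 4 lower of 17 tested (8 and 7 under scaling by library size alone). Cdkn1a, the inhibitor p21, rose from 24.4 ± 7.98 CPM to 144 ± 24.3 CPM, Cdkn2c, the inhibitor p18, by 2.31, and Cdk4, a kinase of G1, by 0.75, while Ccnd1, the gene of cyclin D1, stood at 54.4 ± 3.88 CPM after MCAO and 65.5 ± 9.09 CPM after sham surgery (log2 fold change -0.30, edgeR adjusted p = 0.0194). Its adjusted p was 0.0509 without MCAO control replicate 3 and 0.0735 without replicate 4.

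Promoter sequences are shown for members of 6 groups that rose, since genes of such groups are known to share short motifs. They come from RefSeq on GRCm38.p6, in windows of 250 bases before to 50 after each start, and 32851 windows were searched on both strands. For mitosis genes the motifs were the CCAAT box (CCAAT) and the cell cycle homology region, or CHR (TTTGAA). Of 33 mitosis genes found in the table, 26 had the CHR in a window (80% of their 35 windows and 17.9% of all), and 25 had a CCAAT box (77.1% and 37.4%). For replication genes the motifs were 2 forms of the E2F element, TTCGCGC (21.6% of the windows of 32 genes and 1.59% of all) and TTTGGCGC (13.5% and 0.514%), which overlap each other in some windows. The stretches with the motifs are those of Ccnb2, another B-type cyclin (chr9:70421525-70421741, minus strand), Cdk1, the mitotic kinase (chr10:69352902-69353140, minus strand), and Mcm6 (chr1:128359656-128359835, minus strand), 5′ to 3′ on the gene's strand with the motifs in capitals, on either strand.
Ccnb2: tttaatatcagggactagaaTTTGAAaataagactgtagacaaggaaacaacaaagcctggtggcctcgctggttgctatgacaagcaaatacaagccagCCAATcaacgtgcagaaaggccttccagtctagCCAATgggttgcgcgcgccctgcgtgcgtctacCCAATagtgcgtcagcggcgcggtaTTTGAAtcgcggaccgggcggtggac
Cdk1: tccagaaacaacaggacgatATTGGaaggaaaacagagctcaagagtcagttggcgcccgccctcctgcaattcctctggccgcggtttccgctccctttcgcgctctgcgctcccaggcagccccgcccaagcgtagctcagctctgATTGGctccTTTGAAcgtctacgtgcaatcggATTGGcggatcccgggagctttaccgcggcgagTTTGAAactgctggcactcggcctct
Mcm6: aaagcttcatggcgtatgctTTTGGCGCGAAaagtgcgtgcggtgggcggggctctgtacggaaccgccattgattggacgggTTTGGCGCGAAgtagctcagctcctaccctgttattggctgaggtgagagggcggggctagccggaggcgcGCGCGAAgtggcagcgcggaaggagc
In the Ccnb2 stretch 3 CCAAT boxes lie between 2 copies of the CHR, and the Mcm6 stretch holds the longer E2F form 2 times, each overlapping the shorter form on the other strand. Ccnb2 was named after its values were seen. A match is a run of letters and not a bound site. Ccnb2 rose by 3.70, Cdk1 by 3.43 and Mcm6 by 2.38 on the log2 scale.

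Interferon-stimulated genes, which cells switch on when interferons bind their receptors, also rose. Of 41 tested, 38 rose and 3 did not pass, with a median change of 1.93, and under scaling by library size alone 38 rose and 2 fell. Irf7, the transcription factor that amplifies the type I response (ENSMUSG00000025498, chromosome 7 of GRCm38 from 141262706 to 141266481), stood at 91.8, 80.3, 78.9 and 63.2 CPM after MCAO and at 13.8, 14.4, 10.37, 11.9 and 11.1 CPM after sham surgery. Isg15, a ubiquitin-like modifier (ENSMUSG00000035692, chromosome 4 of GRCm38 from 156199424 to 156200818), stood at 21.1, 14.5, 17.99 and 15.1 CPM and 4.53, 3.16, 1.94, 2.98 and 2.90 CPM. Every MCAO library was above every sham library in both. Log2 fold changes were 2.65 ± 0.13 (SE, edgeR adjusted p = 5.36e-09) for Irf7 and 2.44 ± 0.21 (SE, edgeR adjusted p = 1.01e-06) for Isg15.

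Ifit1 and Ifit3, antiviral proteins that bind foreign RNA, rose by 2.72 and 2.11, Ifitm3, which blocks viral entry, by 2.58, and Ifi204, a DNA sensor of the Ifi200 family, by 2.88 on the log2 scale. The 3 that did not pass the test were Gbp5, Gbp7 and Igtp, guanosine triphosphatases best known as targets of interferon gamma, named here after their values were seen, with log2 fold changes of 0.02, -0.03 and -0.15. Related guanosine triphosphatases on the list, Gbp2, Gbp3 and Irgm1, were among those that rose. Class I antigen presentation had a lower median, with 16 of 20 genes higher and a log2 fold change of 0.69. Among them H2-K1 and H2-D1, the classical class I heavy chains, rose by 1.16 and 1.34, B2m, their light chain, by 1.16, and Nlrc5, the activator of class I genes, by 2.02. Reads of class I genes can be shared between near-identical copies, and how they were divided is not stated. Class II and costimulatory genes rose for 6 of 13 and fell for 1, and under scaling by library size alone 4 rose and 5 fell. Cd74, the class II invariant chain, stood at 659 ± 19.2 CPM and 535 ± 113 CPM (log2 fold change 0.27, edgeR adjusted p = 0.0929), and without sham control replicate 1 its adjusted p was 0.00936.

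The motif searched for in interferon-stimulated genes was the core of the interferon-stimulated response element (GAAANNGAA). Of 30 of these genes in the table, 21 had it, 64.7% of their 34 windows against 8.56% of all windows. Isg15 (chr4:156200856-156200916, minus strand) and Ifit1 (chr19:34640760-34640833, plus strand) are shown for their tandem copies.
Isg15: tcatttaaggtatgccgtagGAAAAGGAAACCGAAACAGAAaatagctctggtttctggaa
Ifit1: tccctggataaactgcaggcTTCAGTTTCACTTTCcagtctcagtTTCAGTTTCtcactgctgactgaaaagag
Both hold 3 overlapping or neighbouring copies in capitals, on the gene's strand in Isg15 and on the opposite strand in Ifit1.

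The response of these 2 gene groups differed between control and Vdr-cKO mice. In 1 fit of all 16 libraries, the change with MCAO was more positive in control than in Vdr-cKO mice for 199 of 17335 genes (1.15%) and more negative for 243 (1.4%). Among mitosis genes it was more positive for 32 of 38, with a median change of 3.61 in control and 1.88 in Vdr-cKO mice, and among DNA replication genes for 8. The mitosis genes already differed after sham surgery, with sums of 123 to 154 CPM in control and 242 to 408 CPM in Vdr-cKO libraries. After MCAO their sums overlapped, at 1251 to 2338 CPM in control and 1170 to 1267 CPM in Vdr-cKO libraries. Among interferon-stimulated genes the change with MCAO was more negative in control mice for 38 of 41, with medians of 1.93 and 4.08, and for 13 of 20 class I genes. The lists were written with earlier results of these data known. The paper reports interferon-stimulated and class I genes as raised in Vdr-cKO cells after MCAO in this same series. These counts therefore describe the lists and are no independent support. Without sham control replicate 3 the 2 counts over all genes were 358 and 368, without sham Vdr-cKO replicate 1 the first was 105 and without sham Vdr-cKO replicate 2 it was 111. Vdr-cKO mice also carry Cre in 1 Cx3cr1 allele, so the loss of Vdr cannot be told apart from that of a Cx3cr1 allele here. The sham Vdr-cKO columns lack the read file ending of the sham control columns. Any handling that goes with that ending cannot be told apart from the difference between genotypes either.

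For Ccnb1 the difference of the 2 log2 fold changes, control minus Vdr-cKO, was 2.84 ± 0.38 (SE, edgeR adjusted p = 0.000411). Its sham level was 4.79 CPM in Vdr-cKO (n = 3) and 0.991 CPM in control libraries (n = 5), while the MCAO levels were 24.8 ± 1.28 CPM and 37.5 ± 11.9 CPM. For Isg15 it was -3.25 ± 0.62 (SE, edgeR adjusted p = 0.00546), and there the difference lay after MCAO, at 349.8, 180.5, 78.2 and 83.1 CPM in Vdr-cKO and the levels given above in control libraries, with sham levels of 3.33 ± 0.275 CPM and 3.10 ± 0.925 CPM. Slc1a3, which takes up glutamate and is typical of astrocytes, had the 3rd largest positive difference among the genes named by rank, and its control MCAO libraries split into 166, 478, 118 and 496 CPM, against 147, 146, 165, 163 and 122 CPM after sham surgery. Its log2 fold change in control mice was 1.05 ± 0.34 (SE, edgeR adjusted p = 0.0179), and the adjusted p was 0.0706 without MCAO control replicate 2 and 0.0772 without replicate 4, and 0.0723 by limma-voom. The 2 genes with a larger difference, Ranbp3l, a relative of Ran-binding proteins, and Gm37310, stood at 4.73, 9.46, 3.30 and 12.9 CPM and at 9.59, 33.8, 10.2 and 54.3 CPM in the control MCAO libraries, again highest in replicates 2 and 4. In Vdr-cKO mice the log2 fold changes with MCAO were -2.67 for Slc1a3, -3.20 for Ranbp3l and -3.25 for Gm37310. The values in control mice were 1.05, 1.48 and 2.26, so the larger part of each difference lay in Vdr-cKO mice. The astrocyte markers, Slc1a3 among them, were high in the sham Vdr-cKO libraries, where they summed to 526 to 749 CPM. Their sums were 172 to 218 CPM in sham control and 117 to 141 CPM in MCAO Vdr-cKO libraries.

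**Figure D4:**
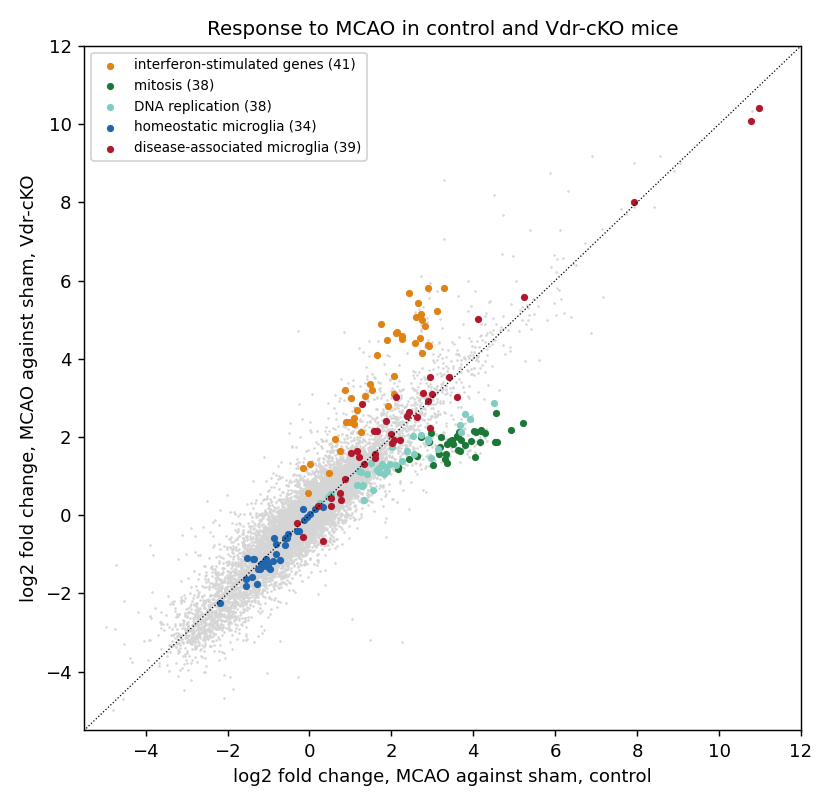
Log2 fold change with MCAO in control (x axis) and Vdr-cKO mice (y axis), 1 point per gene, with 5 lists in colour and the line of equal change dotted. Interferon-stimulated genes lie above the line (medians 1.93 and 4.08), mitosis genes below it (3.61 and 1.88), and 2 genes lie outside the axes.

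Across all genes the 2 genotypes gave like responses, from libraries that they do not share. Of 15770 genes tested in both, 7824 passed in both, and 7789 of these moved the same way (Pearson r = 0.915 across genes, which are not independent replicates). Of the genes called in control mice, 378 had a response that differed between genotypes. For disease-associated genes the medians were 1.99 in control and 2.14 in Vdr-cKO mice, and 2 of the genes differed in response, Axl and Npc2, the latter named after its values were seen. For homeostatic genes the medians were -0.92 and -1.11, with a median difference of 0.09.

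Secreted signals of inflammation rose unevenly. Of 28 genes of the interleukin-1, TNF and inflammasome list, 20 rose and 4 fell, with a median change of 0.42 (13 rose, 5 fell and the median was 0.19 under scaling by library size alone). Il1b, the inflammatory cytokine interleukin-1 beta (ENSMUSG00000027398, chromosome 2 of GRCm38 from 129364570 to 129371139), stood at 1039, 374, 564 and 578 CPM after MCAO and 46.9, 67.9, 47.0, 39.5 and 49.0 CPM after sham surgery. Its natural antagonist Il1rn stood at 95.1, 32.4, 44.1 and 52.9 CPM and 2.64, 3.28, 2.46, 3.41 and 3.47 CPM. Neither pair of groups overlapped, and the log2 fold changes were 3.65 ± 0.26 (SE, edgeR adjusted p = 1.49e-07) and 4.17 ± 0.28 (SE, edgeR adjusted p = 1.06e-07). Il1r2, the decoy receptor of interleukin-1, rose by 4.16, Tnf by 2.81, and Ptgs2, the inducible cyclooxygenase, from 14.1 ± 3.92 CPM to 282 ± 97.8 CPM. Il1a rose by 0.73. Il10 stood at 3.74 ± 1.06 CPM after MCAO and 2.61 ± 0.669 CPM after sham surgery (log2 fold change 0.49, edgeR adjusted p = 0.117). In the list of other cytokines and their receptors 13 of 25 rose and 7 fell. Osm, oncostatin M, rose by 2.26, Socs3, a feedback inhibitor of STAT3 signals, by 1.17, and Il4ra, the receptor chain for interleukins 4 and 13, from 187 ± 21.5 CPM to 610.2 ± 52.9 CPM.

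Of 21 chemokine genes, 16 rose and 2 fell, with a median change of 1.55. The largest rise was in Cxcl3, a ligand of CXCR2, at 139, 26.9, 39.8 and 31.0 CPM after MCAO and 0.294, 0.0596, 0.259, 0 and 0.126 CPM after sham surgery, and Cxcl2, another ligand of that receptor, stood at 980.0, 229, 293 and 259 CPM and 34.8, 35.9, 31.3, 28.0 and 28.0 CPM. The groups of both were apart, but MCAO control replicate 1 held several times the level of the other MCAO libraries. Without it the log2 fold changes were 7.70 for Cxcl3 and 3.03 for Cxcl2, in place of 8.55 and 3.77. Ccl3 and Ccl4, inflammatory chemokines of macrophages, rose by 1.99 and 1.58, Ccl12, a monocyte attractant of mice, by 1.65, and Ccl2, the main monocyte attractant, by 1.35. Cxcl10, the interferon-induced attractant of T cells, rose from 5.32 ± 0.482 CPM to 43.5 ± 15.7 CPM, a log2 fold change of 3.00 ± 0.21 (SE, edgeR adjusted p = 1.56e-07).

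Of 17 chemoattractant receptors, 11 rose and 4 fell. Cxcr4, the receptor for CXCL12, rose from 14.8, 14.1, 11.6, 14.9 and 9.14 CPM to 219, 205, 239 and 299 CPM, a log2 fold change of 4.19 ± 0.15 (SE, edgeR adjusted p = 6.75e-10). Ccrl2, which binds chemerin without signalling, rose by 3.12, Ccr1 by 2.41, and the anaphylatoxin receptors C5ar1 and C3ar1 by 1.80 and 1.47. In the complement list 8 of 15 rose and 2 fell. Cfp, properdin, a stabilizer of the alternative pathway, rose from 17.1 ± 3.60 CPM to 134 ± 8.12 CPM, C3 by 1.31 and C4b by 1.48. The change of C3 was 1.98 without sham control replicates 2, 4 and 5. It was 0.98 without sham control replicates 1 and 3 and 1.10 without MCAO control replicate 1. C1qa, a subunit of the first component, stood at 2001 ± 180.5 CPM after MCAO and 2150.4 ± 503 CPM after sham surgery (log2 fold change -0.13, edgeR adjusted p = 0.51). Without sham control replicate 3, the lowest library at 1256 CPM, it was at -0.27 on the log2 scale, with an edgeR adjusted p of 0.0102, and without sham control replicates 2, 4 and 5 at 0.12, with 0.662.

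Among toll-like receptors and adaptors 10 of 21 rose and 5 fell. Tlr2, which senses lipoproteins, rose by 1.61, Tlr8 by 2.39 and Cd14, the coreceptor for lipopolysaccharide, from 327 ± 44.7 CPM to 731 ± 116 CPM, while Tlr5, the flagellin receptor, fell by 1.19 on the log2 scale. In the list of C-type lectins, Siglecs and inhibitory receptors 13 of 26 rose and 10 fell, and 12 rose and 12 fell under scaling by library size alone. Clec4d, a lectin of inflammatory myeloid cells, stood at 158, 80.1, 87.6 and 112 CPM after MCAO and 3.64, 4.47, 2.92, 3.59 and 3.65 CPM after sham surgery, a log2 fold change of 4.87 ± 0.21 (SE, edgeR adjusted p = 2.14e-09). Cd300lf, a receptor for lipids on dying cells, rose by 4.29 and Lilrb4a, an inhibitory receptor, by 2.90. Siglech, a microglial lectin, fell by 1.09 on the log2 scale. Fc receptors and their signalling partners rose for 9 of 16 and fell for 2, with a median of 0.30 (6 rose, 4 fell and the median was 0.06 under scaling by library size alone). Fcgr4, the IgG receptor CD16-2, rose from 10.9 ± 1.25 CPM to 105 ± 4.16 CPM and Trem1, an amplifier of inflammation, from 8.80 ± 2.99 CPM to 90.6 ± 40.8 CPM.

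Purine receptors showed a mixed picture, with 6 of 13 higher and 5 lower, and a median of 0.22 that was -0.01 under scaling by library size alone. P2ry2, a receptor for ATP and UTP, rose from 0.999, 1.37, 0.324, 0.670 and 1.07 CPM to 20.6, 15.5, 10.7 and 16.8 CPM, and P2rx4, an ATP-gated channel, by 1.07, while P2ry12 and P2ry13, given above, fell, as did Adora3, an adenosine receptor, by 0.62 on the log2 scale.

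Scavenger receptors Msr1 and Cd36 rose from 14.6 ± 3.30 CPM to 346 ± 27.3 CPM and from 22.2 ± 3.76 CPM to 349.6 ± 108 CPM, and Olr1, the receptor for oxidized low-density lipoprotein, from 1.45 ± 0.521 CPM to 22.02 ± 5.81 CPM. In the TAM family, which recognizes phosphatidylserine through bridging proteins, the members parted. Axl stood at 124, 187, 177 and 179 CPM after MCAO and 79.3, 77.2, 58.2, 63.5 and 58.4 CPM after sham surgery (log2 fold change 1.28 ± 0.13 SE, edgeR adjusted p = 4.15e-06), and Mertk stood at 542, 659.9, 714 and 675 CPM and 932, 1053, 964, 1182 and 959 CPM (log2 fold change -0.68 ± 0.09 SE, edgeR adjusted p = 4.79e-05). Axl was higher and Mertk lower in every MCAO library than in any sham library. Over the whole list 12 of 19 rose and 4 fell, with a median change of 0.59, or 0.35 under scaling by library size alone.

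Plin2, the coat protein of lipid droplets (ENSMUSG00000028494, chromosome 4 of GRCm38 from 86648386 to 86670060), stood at 998, 1300.0, 1092 and 1359.8 CPM after MCAO and 32.6, 25.5, 26.7, 20.2 and 26.2 CPM after sham surgery, a log2 fold change of 5.47 ± 0.15 (SE, edgeR adjusted p = 1.45e-10). Hilpda, an inhibitor of lipid breakdown that hypoxia induces, rose from 2.52 ± 0.603 CPM to 104 ± 25.8 CPM. Of 27 genes of lipid uptake, storage and efflux, 21 rose and 2 fell, with a median change of 1.38. Lpl, lipoprotein lipase, rose by 3.60, Ch25h, which makes 25-hydroxycholesterol, by 4.11, and Abca1, the cholesterol exporter, from 715 ± 69.8 CPM to 1892 ± 276 CPM. Synthesis did not move with storage. Of 23 genes of cholesterol synthesis 2 rose and 4 fell (5 and 3 without sham control replicates 1 and 3), with a median of 0.03 that was -0.21 under scaling by library size alone. Lss, which closes the first sterol ring system, fell by 0.77 on the log2 scale. Of the promoter windows of 17 of these genes 5% held the core of the sterol regulatory element (TCACNCCAC), as did 1.24% of all windows. Genes of fatty acid synthesis and oxidation rose for 12 of 22 and fell for 6 (6 and 7 under scaling by library size alone), and Cpt1a, the gate of fatty acid oxidation, rose by 1.36.

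Lysosomal genes rose broadly, 35 of 40 with 3 lower, and their median log2 fold change was 1.14. Ctsb, a cysteine cathepsin (ENSMUSG00000021939, chromosome 14 of GRCm38 from 63122462 to 63145923), stood at 10422, 13516, 12169.6 and 14484 CPM after MCAO and 1901, 2127, 1896, 2187 and 1970.3 CPM after sham surgery, a log2 fold change of 2.62 ± 0.10 (SE, edgeR adjusted p = 8.99e-10). Ctsd, the aspartic cathepsin, rose from 3572 ± 498 CPM to 11002 ± 1414 CPM, and Psap, the precursor of the saposins, from 3591 ± 243 CPM to 10558 ± 1518 CPM. Gla, alpha-galactosidase, rose by 4.11, Cd68, a lysosomal membrane protein of macrophages, by 1.59, and Gusb, beta-glucuronidase, by 1.63. The motif searched for was the E-box at the centre of the element of coordinated lysosomal expression (CACGTG), found in 33.3% of 39 windows of 31 lysosomal genes and 7.15% of all. Lamp1 (chr8:13159080-13159171, plus strand), a lysosomal membrane protein that rose by 1.47, has 4 copies.
Lamp1: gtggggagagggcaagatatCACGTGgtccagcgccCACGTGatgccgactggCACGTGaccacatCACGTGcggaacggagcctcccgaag
Lamp1 is shown for these copies, in capitals, and was chosen after its values were seen.

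Glycolysis and its hypoxia-linked regulators rose. Of 27 genes 22 rose and 5 did not pass, with a median change of 1.99 (21 rose and 2 fell under scaling by library size alone). Ldha, which turns pyruvate into lactate (ENSMUSG00000063229, chromosome 7 of GRCm38 from 46841475 to 46855627), stood at 713, 676, 662 and 659.5 CPM after MCAO and 139, 105, 102, 102 and 101 CPM after sham surgery, a log2 fold change of 2.60 ± 0.10 (SE, edgeR adjusted p = 1.3e-09). Pkm, the pyruvate kinase gene, rose from 286 ± 51.0 CPM to 1724 ± 152 CPM, Tpi1, triosephosphate isomerase, by 2.58, and Slc16a3, the lactate exporter MCT4, by 1.89. Aldoa, an aldolase, rose by 1.90, though its reads overlap another annotated gene of that name. Hif1a, the oxygen-regulated factor, rose by 2.07, and genes known as its targets rose too, Vegfa, the vascular growth factor, from 18.6 ± 6.54 CPM to 194 ± 45.7 CPM and Egln3, a prolyl hydroxylase that marks HIF for decay, from 1.24 ± 0.346 CPM to 86.1 ± 32.5 CPM. Hk2, the inducible hexokinase, stood at 266 ± 19.1 CPM and 280.0 ± 20.3 CPM (log2 fold change -0.10, edgeR adjusted p = 0.235). The hypoxia response element core (ACGTG) was in 58.3% of 36 windows of 26 genes on the list and in 19.6% of all, and it is part of the E-box above. Ldha (chr7:46845639-46845794, plus strand) is shown, for it holds the core in 3 places.
Ldha: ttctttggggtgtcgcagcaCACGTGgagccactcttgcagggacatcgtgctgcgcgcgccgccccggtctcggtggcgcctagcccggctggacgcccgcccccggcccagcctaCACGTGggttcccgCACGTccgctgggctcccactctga
The capitals mark the core on either strand, and the outer letter of the E-box where both strands match.

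Genes of mitochondrial respiration rose by less. Of 74 nuclear-encoded subunits 59 rose and 15 did not pass, with a median change of 0.63, and under scaling by library size alone 43 rose, 1 fell and the median was 0.40. Cox5a, a subunit of cytochrome oxidase, rose by 1.47. Mitochondrially encoded genes rose for 12 of 14 (5 under scaling by library size alone, and 6 without sham control replicates 2, 4 and 5). The share of all counts that came from them was 2.01 ± 0.188% (SD, n = 4) after MCAO and 1.45 ± 0.421% (SD, n = 5) after sham surgery (2-sided exact permutation test, p = 0.0635), and mt-Co1, a catalytic subunit of cytochrome oxidase, stood at 9108, 8359, 9806 and 9517 CPM and 4888, 3804, 6333, 3694 and 3994 CPM. Of 21 citric acid cycle genes 12 rose and 2 fell, with a median of 0.22 that was -0.02 under scaling by library size alone. The largest change was in Acod1, which makes itaconate, from 4.09 ± 1.20 CPM to 57.0 ± 31.3 CPM.

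Cytosolic ribosomal protein genes rose for 78 of 80, with 1 lower and a median log2 fold change of 1.03 (0.80 under scaling by library size alone). They took 1.99 ± 0.0777% of counts (SD, n = 4) after MCAO and 1.11 ± 0.108% (SD, n = 5) after sham surgery (exact permutation test, 2-sided, p = 0.0159, again the smallest that can be had), with no overlap. Rpsa, the laminin receptor and subunit of the small ribosomal particle, stood at 804, 698, 779 and 716 CPM and 217, 216, 204, 207 and 189.5 CPM, a log2 fold change of 1.83 ± 0.07 (SE, edgeR adjusted p = 1.29e-09). Such genes have many processed pseudogenes that can share their reads. Chaperones and folding enzymes of the protein folding list rose for 19 of 21, Hspa5, the chaperone BiP of the endoplasmic reticulum, by 0.97. Of 27 ribosome biogenesis genes 12 rose and 3 fell, Ncl, nucleolin, rising by 1.03, and the median of 0.23 was -0.01 under scaling by library size alone.

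Most of the antioxidant genes tested that the factor NRF2 controls rose, as did most of those of heme and iron. Hmox1, the heme oxygenase that frees iron and makes biliverdin (ENSMUSG00000005413, chromosome 8 of GRCm38 from 75093621 to 75100589), stood at 1779, 2161, 1436 and 1687 CPM after MCAO and 45.5, 36.0, 36.6, 31.8 and 29.8 CPM after sham surgery, a log2 fold change of 5.59 ± 0.16 (SE, edgeR adjusted p = 1.45e-10). Fth1 and Ftl1, the chains of ferritin that store iron, rose from 668 ± 46.7 CPM to 5435 ± 206 CPM and from 350.4 ± 31.8 CPM to 3370.3 ± 483 CPM. Slc40a1, ferroportin, through which cells export iron, went the other way and fell from 245 ± 26.3 CPM to 145 ± 9.99 CPM, a log2 fold change of -0.78 ± 0.08 (SE, edgeR adjusted p = 6.22e-06). In the NRF2 list 16 of 20 rose and 2 fell, with a median change of 1.25, and in the iron list 11 of 18 rose and 2 fell (11 and 6 under scaling by library size alone). Slc7a11, the cystine importer, rose by 3.19, Srxn1, sulfiredoxin, by 3.10, Txnrd1, thioredoxin reductase, by 2.18, and Gclm, the modifier subunit of the enzyme that starts glutathione synthesis, by 2.23. The antioxidant response element core (TGACNNNGC) was in 38.1% of 21 windows of 17 NRF2 list genes and 12.4% of all, and Gclm (chr3:122245403-122245451, plus strand) is shown as an example, with the copy, on the opposite strand, in capitals.
Gclm: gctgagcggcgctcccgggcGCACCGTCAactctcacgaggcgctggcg

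Arg1, the arginase that turns arginine into ornithine and urea (ENSMUSG00000019987, chromosome 10 of GRCm38 from 24915221 to 24927484), stood at 1302, 895, 861 and 1004 CPM after MCAO and at 0.411, 0.476, 0.713, 0.548 and 0.630 CPM after sham surgery. Nos2, the inducible nitric oxide synthase that uses the same substrate, stood at 51.8, 13.03, 9.14 and 7.51 CPM and 0.470, 0.417, 0.389, 0 and 0.189 CPM. Both were apart between groups, and for Nos2 MCAO control replicate 1 was several times above the others. Log2 fold changes were 10.80 ± 0.19 (SE, edgeR adjusted p = 4.23e-12) for Arg1 and 6.05 ± 0.72 (SE, edgeR adjusted p = 1.38e-05) for Nos2, and 5.02 for Nos2 without that library. Arg2, the mitochondrial arginase, rose by 3.43, Ass1, which helps to rebuild arginine, by 2.79 and Odc1, the first enzyme of polyamine synthesis, by 0.66. Over the arginine and polyamine list 10 of 14 rose and 4 did not pass (10 rose and 1 fell under scaling by library size alone). Of 18 genes of the NADPH oxidase and of prostaglandin synthesis 11 rose and 5 fell (7 and 5 under scaling by library size alone). Cybb, the catalytic subunit of the phagocyte oxidase, rose by 1.53, and the 2 cyclooxygenases parted, with the inducible Ptgs2 higher, as above, and the constitutive Ptgs1 lower, from 809.7 ± 106 CPM to 423 ± 32.8 CPM.

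Matrix, protease and growth factor genes had the second highest median of the lists (2.97), with 24 of 29 higher and 4 lower. Mmp12, the macrophage elastase, stood at 200.3, 152, 161 and 107 CPM after MCAO and 2.70, 1.73, 3.24, 1.46 and 1.76 CPM after sham surgery, a log2 fold change of 6.12 ± 0.24 (SE, edgeR adjusted p = 9.17e-10). Thbs1 stood at 4863, 3284, 4435 and 5392 CPM and 87.7, 87.1, 72.1, 75.5 and 72.6 CPM, and Fn1 rose by 6.02. Adam8, a sheddase, rose from 27.0 ± 10.8 CPM to 615 ± 42.8 CPM, Cd44, the hyaluronan receptor, from 17.4 ± 3.65 CPM to 230.0 ± 43.6 CPM, and Tgfbi, a matrix protein that TGF-beta induces, from 125.9 ± 7.86 CPM to 931 ± 182 CPM. Timp1, an inhibitor of metalloproteinases, rose from 0.135 ± 0.132 CPM to 5.28 ± 1.02 CPM, with a log2 fold change of 5.18 that was 6.74 without sham control replicates 1 and 3 and 4.17 without replicates 2, 4 and 5. Integrins and adhesion genes divided, 12 higher and 9 lower of 23. Itga4 and Itga5, chains that pair with beta-1 integrin, rose by 1.91 and 1.80, and Selplg, the ligand of P-selectin, fell by 1.38 on the log2 scale.

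Genes of the cytoskeleton, annexins and galectins rose for 27 of 30 and fell for 2, with a median change of 1.57. Vim, the intermediate filament vimentin, rose from 70.4 ± 16.2 CPM to 789 ± 73.4 CPM, Lgals1, galectin-1, from 13.8 ± 4.51 CPM to 178 ± 43.04 CPM, and Anxa2, a membrane-binding annexin, from 18.4 ± 3.82 CPM to 273 ± 32.9 CPM. Fscn1, which bundles actin in filopodia, fell from 588 ± 57.3 CPM to 206 ± 17.0 CPM. Ion channels and transporters divided, 9 higher and 7 lower of 19 (7 and 8 under scaling by library size alone). Kcnn4, the calcium-activated potassium channel KCa3.1, rose from 4.53, 4.05, 2.92, 4.08 and 5.48 CPM to 21.05, 17.1, 16.1 and 22.2 CPM.

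Transcription factors of macrophage identity moved both ways, 9 higher and 13 lower of 28 (5 and 17 under scaling by library size alone). Of all genes tested 31.2% rose and 32.3% fell. Spi1, the gene of PU.1, stood at 304 ± 12.5 CPM after MCAO and 249 ± 23.9 CPM after sham surgery, and Runx1 at 165 ± 5.01 CPM and 149.7 ± 15.9 CPM, with log2 fold changes of 0.26 (edgeR adjusted p = 0.00972) and 0.12 (edgeR adjusted p = 0.234). Under scaling by library size alone the adjusted p of Spi1 was 0.767 from edgeR. Mef2c, a factor of mature microglia, fell by 0.55 on the log2 scale and Irf8 by 0.41, with an adjusted p of 0.322 for Irf8 without sham control replicates 2, 4 and 5. Among those that rose were Bhlhe40, from 12.1 ± 3.001 CPM to 107 ± 20.2 CPM, Id2, from 29.2 ± 4.29 CPM to 178 ± 15.4 CPM, Runx3, by 3.38, and Cebpb, by 1.16.

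TGF-beta signalling, which keeps microglia in their homeostatic state, had 12 of 21 genes that fell, and the other 9 did not pass the test. Tgfbr1, the type I receptor (ENSMUSG00000007613, chromosome 4 of GRCm38 from 47353222 to 47414931), stood at 921, 904, 1108 and 1084 CPM after MCAO and 2255, 2126, 2739, 2512 and 2131 CPM after sham surgery, with no overlap and a log2 fold change of -1.26 ± 0.10 (SE, edgeR adjusted p = 5.83e-07). Smad3, its effector, fell from 197 ± 13.1 CPM to 111 ± 6.74 CPM, and Eng, endoglin, a coreceptor, from 213 ± 22.7 CPM to 92.5 ± 7.92 CPM. The ligand Tgfb1 stood at 338 ± 36.2 CPM after MCAO and 393 ± 59.1 CPM after sham surgery (log2 fold change -0.24, edgeR adjusted p = 0.0823), and its adjusted p was 0.00377 without sham control replicate 3. Tgfbr3, betaglycan, fell by 2.29 on the log2 scale, and endothelial cells and pericytes, whose markers were lower as given above, express it too.

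Immediate early genes, which tissue dissociation can induce, rose for 7 and fell for 7 of 21 (5 and 8 under scaling by library size alone). These counts lie near the shares of all genes tested, of which 31.2% rose and 32.3% fell. Fos stood at 786, 664, 991 and 1014 CPM after MCAO and 812, 759, 652, 487 and 670.3 CPM after sham surgery, groups that overlapped (log2 fold change 0.32, edgeR adjusted p = 0.0914), and Jun at 337, 298, 455 and 382 CPM and 1162, 970.4, 748, 546 and 824 CPM, groups that did not (log2 fold change -1.24, edgeR adjusted p = 0.00016). The adjusted p of Fos was 0.0282 without MCAO control replicate 2 and 0.0416 without sham control replicate 1. Rgs1, a brake on G protein signals, and Ier3, a stress-induced survival gene, rose by 3.12 and 2.71 on the log2 scale. In the integrated stress response list 10 of 17 rose and 2 fell. Psat1, an enzyme of serine synthesis, rose from 21.4 ± 2.88 CPM to 164 ± 3.69 CPM and Trib3, a pseudokinase of that response, by 3.32, while Atf4 and Ddit3, its transcription factors, had log2 fold changes of -0.07 (edgeR adjusted p = 0.712) and -0.21 (edgeR adjusted p = 0.294). In the cell death list 14 of 26 rose and 4 fell. Mlkl and Ripk3, effectors of necroptosis, rose by 3.04 and 1.70, and Mcl1, a survival protein, from 407 ± 29.8 CPM to 860.5 ± 108 CPM.

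Beyond the lists, the 15 DEGs with the largest log2 fold change among genes of at least 5 CPM in the higher group held genes of coagulation. F7, coagulation factor VII, stood at 43.4, 54.4, 46.7 and 62.2 CPM after MCAO and 0.235, 0.238, 0, 0 and 0 CPM after sham surgery, and F10, factor X, rose from 0.625 ± 0.313 CPM to 47.0 ± 19.9 CPM. Cd5l, a secreted scavenger protein of macrophages, rose from 0.881 ± 0.403 CPM to 194 ± 64.8 CPM, a log2 fold change of 7.74 ± 0.28 (SE, edgeR adjusted p = 6.75e-10). Emp1, an epithelial membrane protein, rose by 6.50, Mmp27, a metalloproteinase, by 7.13 and Stra6l, related to the retinol transporter gene Stra6, by 7.94. Ppbp, a platelet chemokine, stood at 29.8, 6.81, 7.87 and 9.40 CPM after MCAO, led by replicate 1, and 0.235, 0, 0.259, 0.304 and 0.0630 CPM after sham surgery. Its log2 fold change was 6.21, and 5.47 without MCAO control replicate 1. Another platelet marker, Gp9, fell by 1.78 on the log2 scale, and Itga2b stood at 1.58 ± 0.543 CPM and 1.73 ± 0.852 CPM (log2 fold change -0.16, edgeR adjusted p = 0.754).

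The 15 with the smallest log2 fold change rested in part on single sham libraries. Gh, growth hormone, stood at 897, 0.834, 5.19, 0.974 and 29.5 CPM in the sham libraries and at 0.333, 0.331, 0 and 0.135 CPM after MCAO, and Pomc, the precursor of corticotropin, at 92.3, 0.834, 1.17, 0.609 and 0.819 CPM and 0.0666, 0.198, 0.422 and 0.203 CPM. Both are pituitary hormones, and sham control replicate 1 held nearly all of their reads. Without it the log2 fold changes were -5.48 for Gh, in place of -9.84, and Pomc had too few counts left to be tested. Without sham control replicates 1 and 3 Pomc could be tested, with a log2 fold change of -1.75 in place of -6.44 (edgeR adjusted p = 0.0116). Meg3, an imprinted long noncoding RNA of neurons and the pituitary, went from -4.73 to -2.26 without sham control replicate 1. By limma-voom the adjusted p was 0.368 for Gh, 0.206 for Pomc and 0.118 for Meg3. Sema3b, a semaphorin, fell from 23.2 ± 8.88 CPM to 2.097 ± 1.24 CPM and Dsp, desmoplakin of cell junctions, from 8.32 ± 3.23 CPM to 0.843 ± 0.538 CPM, in the same direction as the choroid plexus markers, and whether these are the same cells was not tested. Prg2, the major basic protein of eosinophils, stood at 1.998, 11.9, 1.69, 4.99 and 8.44 CPM after sham surgery and 0.0666, 0.331, 0.422 and 0 CPM after MCAO. Without sham control replicate 1, 2126 genes were DEGs with a higher and 2132 with a lower level.

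By annotated class, protein-coding genes moved evenly, 33.7% higher and 32.8% lower of 13329 tested. Processed pseudogenes rose for 42.2% and fell for 8.93% of 638, and long intergenic noncoding RNAs rose for 15.8% and fell for 46.0% of 398. Antisense genes rose for 9.58% and fell for 35.6% of 553. Whether the counting used strand is not stated, so reads of an antisense gene and its partner cannot be told apart, and pseudogenes can share reads with their parents.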

How the data were processed

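RNA of CD11b+ cells was sequenced by the authors, who deposited raw counts per gene for 16 libraries. The submitters' processing notes name bcl2fastq, HISAT2 2.1.0, TopHat, limma and the build GRCm38. The counting tool, its annotation and its strand setting are not given in the sources used here, nor is a count of molecules, so that counting error is a lower limit of the error. Columns were matched to samples by name, and groups came from the sample labels.

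The 9 control libraries were fitted with edgeR 4.0.16 in R 4.3.3 (filterByExpr, TMM scaling, quasi-likelihood test) without a block, and p-values were adjusted over 16089 of 32166 genes by the Benjamini-Hochberg method. The threshold of 1 on the log2 fold change follows a figure legend of the study, while its methods state a change of at least 1-fold. The difference between genotypes was the interaction term of 1 fit of all 16 libraries. Single values were compared by 2-sided exact permutation tests. The 43 gene lists and 14 cell type lists held 1171 genes, of which 1167 were found, and they were described by counts and medians. Members, lists and rules were chosen with earlier results of these data known. Named genes were Vdr, key members of the lists, the next 3 members of a list by adjusted p, the 15 DEGs with the largest and the 15 with the smallest log2 fold change with a mean of at least 5 CPM in the higher group and no overlap, the 10 largest and 10 smallest interaction values, and the 10 genes with the highest share of counts in each group. Promoters were RefSeq windows on GRCm38.p6. Counts of different libraries of 1 group differed by 5.34 to 35.9 times the Poisson variance, so no pair agreed within sampling noise. The fit was also run on simulated counts in which few genes changed, as many up as down. That run cannot test the scaling where most genes tested are called, and its outcome is not reported here. Some named genes are not reported here. Alternatives were RLE, upper-quartile and library-size scaling, other filters, DESeq2 1.42.0, limma-voom (limma 3.58.1), a replicate block, and leaving out libraries.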

Additional observations from a re-analysis of the deposited data

Results flagged for a closer look

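In groups of 4 or 5 libraries, the gap between the highest or lowest library and its nearest neighbour was taken relative to the range of the group. Chance passes this test in about 1 in 20 groups, and many groups were tested, so some of the libraries listed below can be there by chance. MCAO control replicate 1 stood apart as the highest library of its group for C3 (92.1 CPM, others 52.1 to 58.7 CPM), Cdkn2c (44.4 CPM, others 24.6 to 27.6 CPM), Cxcl2 (980.0 CPM, others 229 to 293 CPM), Cxcl3 (139 CPM, others 26.9 to 39.8 CPM), Cxcr2 (144 CPM, others 55.6 to 65.1 CPM), Emilin2 (414 CPM, others 255 to 274 CPM), F10 (76.9 CPM, others 35.5 to 38.5 CPM), Ier3 (303 CPM, others 122 to 138 CPM), Mcm5 (71.7 CPM, others 39.6 to 43.2 CPM), Mmp9 (626 CPM, others 228 to 292 CPM), Nos2 (51.8 CPM, others 7.51 to 13.03 CPM), Ppbp (29.8 CPM, others 6.81 to 9.40 CPM), Rrm2 (54.6 CPM, others 26.4 to 29.4 CPM), Tgfbi (1202 CPM, others 817 to 874 CPM) and Top2a (243 CPM, others 125.6 to 145 CPM). MCAO control replicate 1 stood apart as the lowest library of its group for Axl (124 CPM, others 177 to 187 CPM) and Stra6l (18.3 CPM, others 28.4 to 29.8 CPM). MCAO control replicate 4 stood apart as the highest library of its group for Hif1a (572 CPM, others 436 to 447 CPM) and Msr1 (387 CPM, others 327 to 337 CPM). Sham control replicate 1 stood apart as the highest library of its group for Aldoa (335 CPM, others 219.9 to 249.8 CPM), Gh (897 CPM, others 0.834 to 29.5 CPM), Ldha (139 CPM, others 101 to 105 CPM), Meg3 (174 CPM, others 4.69 to 11.6 CPM), Pomc (92.3 CPM, others 0.609 to 1.17 CPM), Runx3 (6.41 CPM, others 3.10 to 3.69 CPM) and Tpi1 (79.6 CPM, others 53.9 to 60.9 CPM). Sham control replicate 2 stood apart as the highest library of its group for C3 (48.3 CPM, others 14.8 to 24.5 CPM) and Trem1 (13.996 CPM, others 6.29 to 7.99 CPM). Sham control replicate 3 stood apart as the lowest library of its group for C1qa (1256 CPM, others 2321 to 2469 CPM), Cst3 (6566 CPM, others 8655 to 9484 CPM) and Ctsd (2717 CPM, others 3659 to 4021 CPM). Sham control replicate 4 stood apart as the highest library of its group for Cd5l (1.58 CPM, others 0.583 to 0.819 CPM). Sham control replicate 4 stood apart as the lowest library of its group for Tnf (6.33 CPM, others 11.9 to 13.8 CPM). Sham control replicate 5 stood apart as the lowest library of its group for Cd209f (11.1 CPM, others 14.2 to 14.8 CPM) and Ifi204 (17.8 CPM, others 23.2 to 24.3 CPM).

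The change with MCAO differed between control and Vdr-cKO mice for the following named genes, by the interaction term of edgeR with p-values adjusted over all genes. It was more positive in control mice, as a difference of log2 fold changes, for Gm37310 (5.51), Ranbp3l (4.68), Slc1a3 (3.72), Ccnb1 (2.84), Mki67 (2.28), Top2a (2.06), Ccnb2 (1.78), Cdk1 (1.55), Rrm2 (1.48), Mcm5 (0.97) and Psat1 (0.72). It was more negative in control mice, as a difference of log2 fold changes, for Isg15 (-3.25), Ly6c2 (-3.07), Irf7 (-2.77), Ifit3 (-2.55), Ifit1 (-2.43), Ccl2 (-2.03), Ifitm3 (-1.82), Axl (-1.55), Ifi204 (-1.47), Igtp (-1.36), Nlrc5 (-1.22), Ccnd1 (-1.08), C4b (-1.04), H2-K1 (-0.97) and Fcgr4 (-0.79). The adjusted p of these differences ran from 4.81e-05 to 0.0479, both from edgeR.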

How the results depend on the processing

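The counts of DEGs and of genes past the adjusted p after MCAO stayed within 1.5 times of the values given for scaling, filter, tool and left-out library, except for DEGs lower after MCAO, of which there were 1371 with at least 10 counts required in every library and 1198 in the test against an absolute log2 fold change of 1. Leaving out 1 library at a time gave 1984 to 2126 DEGs higher and 2126 to 2470 lower, and 4744 to 5089 genes higher and 4707 to 5130 lower by adjusted p. The 2 counts of genes whose change differed between genotypes moved more. They were 350 (more positive in control) and 398 (more negative) by DESeq2, and leaving out 1 library gave 105 to 358 and 166 to 368. The cause was not tested.

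Libraries share replicate numbers between groups, but same-numbered libraries did not deviate together (r = -0.113, -0.057, 0.124 and 0.089 for numbers 1 to 4, and 1 of 4 correlated best with its own number), so the number is no pairing. With it as a replicate block the DEGs were 2045 higher and 2229 lower, and the differences between genotypes 117 and 193.

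Of the values of named genes under these alternatives, 4041 kept their direction and call, 30 lost the call and 19 gained one, 23 without a call changed sign, and no called value turned its sign. Under scaling by library size alone 172 genes called under TMM scaling had the opposite sign. Vdr rests on few counts in the sham libraries. The groups are of 4 and 5 libraries, and the smallest p of a single value is 0.0159.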
